A study of Mus musculus with 24 samples.

Results

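The 9 genes described here process the Notch receptor, and they were measured in sorted hippocampal cells of mice with and without a conditional deletion of Notch2. They were chosen by symbol, and all 9 of 9 were found among the 48321 gene symbols of the count tables. They comprise the sheddases Adam10 and Adam17, the gamma-secretase subunits Psen2, Ncstn, Aph1a and Psenen, and the Fringe glycosyltransferases Lfng, Mfng and Rfng. The Notch2 CKO mice were C57BL/6 adults with Notch2 flox/flox alleles, the Hes5::CreERT2 driver and the Rosa26R-CAG::GFP reporter. The WT mice carried the same driver and reporter but were Notch2 wt/wt. Both genotypes received tamoxifen for 5 days, and GFP+ cells were sorted from the hippocampus after a chase of 1 day. Hes5 is itself a Notch target expressed by neural stem cells, so the sort took cells in which this promoter had been active, and each sample was a pool of animals. There were 3 CKO and 3 WT pools, each measured in 2 libraries that were both run on 2 lanes, 24 runs in all. The sample descriptions also tag each pool with a number in K. It is 19, 4 and 9 for CKO pools 1 to 3 and 20, 12 and 2 for WT pools 1 to 3. The labels do not say what this tag means, and its part in the values was not tested.

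Notch is a receptor that is cut after its ligand binds. ADAM proteases first shed the ectodomain, and gamma-secretase, a membrane complex built from a presenilin, nicastrin (Ncstn), an Aph1 protein and Psenen, then releases the intracellular domain that acts in the nucleus. Fringe enzymes act earlier, in the Golgi, where they extend O-fucose on the receptor with N-acetylglucosamine and so change which ligands it answers to. In the adult hippocampus Notch signalling is known for keeping neural stem cells quiescent.

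Reads in genes numbered 40366579 to 53984963 per pool, and levels are given as CPM, the usual scale of counts set to a common, TMM-adjusted library size. Notch2 itself stood at 65.3, 116 and 121 CPM in CKO pools 1 to 3 and at 99.3, 146 and 303 CPM in WT pools 1 to 3, so the genotypes overlapped (log2 fold change -0.86, SE 0.45, edgeR adjusted p = 0.790), and the value was -0.29 without WT pool 3. The labels do not give the floxed exons, so a count over the whole gene checks the deletion only in part. Its paralogue Notch1 averaged 105 ± 12.9 CPM in CKO and 106 ± 6.43 CPM in WT pools (SD, n = 3 each), and Notch3 2.28 ± 0.45 CPM in CKO and 1.75 ± 1.08 CPM in WT pools. The 8 astrocyte and radial glia markers summed to 23164 to 35655 CPM in CKO and 23711 to 26413 CPM in WT pools. Cells of other kinds were present as well, since 6 oligodendrocyte markers summed to 3065 to 5345 CPM in CKO and 2303 to 6141 CPM in WT pools, and 7 microglial markers to 174 to 549 CPM in CKO and 213 to 281 CPM in WT pools. The 5 markers of oligodendrocyte precursors summed to 658 to 2064 CPM in CKO and 1123 to 1733 CPM in WT pools, and 5 endothelial markers to 3.83 to 27.9 CPM in CKO and 1.09 to 71.5 CPM in WT pools. The 3 interneuron markers summed to 35.2 to 57.6 CPM in CKO and 18.9 to 33.1 CPM in WT pools, without overlap, while the other marker sums overlapped. Of all genes taken singly, 15.8% did not overlap between the genotypes. Of these markers 0 were at or under 3 reads in all pools. The part of these cells in the results below was not tested.

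The promoters of 3 of the genes are shown because their CKO pools did not overlap their WT pools in what follows. RefSeq windows of 250 bases before to 50 after the transcript start, on GRCm38.p6, were at hand for 8 of the 9 genes. Capitals mark the GC box GGGCGG, the CCAAT box CCAAT, the RBPJ core TGGGAA, to which the DNA-binding partner of Notch binds, and the TATA box TATAAA, each searched on both strands.
Adam10, chr9:70678732-70679031, plus strand: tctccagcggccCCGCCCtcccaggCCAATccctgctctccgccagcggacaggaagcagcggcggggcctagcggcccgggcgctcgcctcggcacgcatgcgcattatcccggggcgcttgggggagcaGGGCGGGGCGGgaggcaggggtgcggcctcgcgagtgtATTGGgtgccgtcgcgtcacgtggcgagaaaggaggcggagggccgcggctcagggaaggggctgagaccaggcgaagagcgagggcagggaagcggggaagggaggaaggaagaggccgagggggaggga
Rfng, chr11:120784155-120784454, minus strand: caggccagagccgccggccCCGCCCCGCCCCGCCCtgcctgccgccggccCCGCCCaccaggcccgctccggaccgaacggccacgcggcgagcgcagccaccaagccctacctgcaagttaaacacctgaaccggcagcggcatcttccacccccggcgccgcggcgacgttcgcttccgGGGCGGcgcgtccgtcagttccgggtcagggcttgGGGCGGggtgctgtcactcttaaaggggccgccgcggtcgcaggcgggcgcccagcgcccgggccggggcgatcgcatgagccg
Lfng, chr5:140607091-140607390, plus strand: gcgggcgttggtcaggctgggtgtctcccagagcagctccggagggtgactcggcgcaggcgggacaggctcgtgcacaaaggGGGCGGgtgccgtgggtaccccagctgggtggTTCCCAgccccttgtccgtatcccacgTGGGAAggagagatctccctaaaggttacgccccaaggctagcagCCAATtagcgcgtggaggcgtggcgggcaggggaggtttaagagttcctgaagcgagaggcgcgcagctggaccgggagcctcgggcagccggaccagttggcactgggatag
The Rfng window holds 6 GC boxes and none of the other motifs, and the Adam10 window 3 GC boxes and 2 CCAAT boxes. The Lfng window holds the RBPJ core at 135 and at 108 bases before the start, beside 1 GC box and 1 CCAAT box. The RBPJ core also occurs in windows of Psen2, Aph1a and Psenen, whose genotypes overlapped, and the GC box in windows of Adam17, Psen2 and Aph1a. Of 27025 promoter windows of this length, 35.9% hold the GC box, 37.9% the CCAAT box, 25.5% the RBPJ core and 14.2% the TATA box. CG dinucleotides numbered 44 in the Rfng, 32 in the Adam10 and 22 in the Lfng window, against 8 to 30 in the windows of the other members and a median of 7 over all windows.

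All the 9 genes were detected in every pool, at levels that spanned more than an order of magnitude. Levels of different genes are compared as CPM per kilobase of summed exon length. The highest was Psenen, the smallest subunit of gamma-secretase, at 36.5 ± 5.94 CPM per kb in CKO and 50.2 ± 18.7 in WT pools (SD, n = 3 each). Ncstn, which encodes the subunit that receives the substrate's stub, followed at 33.3 ± 9.12 in CKO and 31.6 ± 2.91 CPM per kb in WT pools. Rfng, Adam10, Lfng, Aph1a, Adam17 and Psen2 came next, with means over all 6 pools of 19.5, 16.8, 11.3, 8.40, 7.55 and 7.19 CPM per kb. Mfng was last at 0.669 ± 0.543 in CKO and 1.80 ± 1.40 CPM per kb in WT pools. Neighbours in this order overlapped over the 6 pools in each case but the last, since the lowest pool of Psen2 (4.88 CPM per kb) lay above the highest pool of Mfng (2.72 CPM per kb). By their means Rfng stood above Adam10 in CKO pools and just below it in WT pools.

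**Figure D1:**
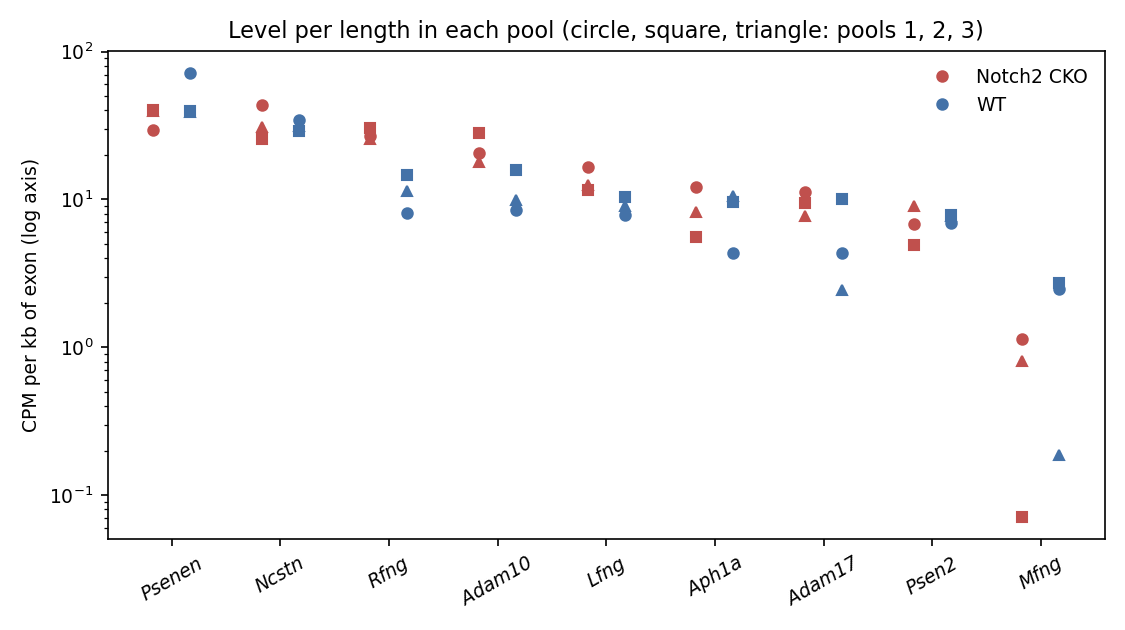
CPM per kilobase of exon on a log axis for each of the 9 genes, ordered by the mean over all pools. Points are single pools, Notch2 CKO to the left of WT, with a circle, square and triangle for pools 1, 2 and 3. Psenen and Ncstn stand highest and Mfng lowest, from 0.0711 to 2.72 CPM per kb.

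No gene changed by the test across all genes. Of 21477 genes tested with edgeR's quasi-likelihood test, 0% passed an adjusted p under 0.05, and so did 0 of the 9 members. An unadjusted p under 0.05 was found for 2 members, both higher in CKO, where 5.91% of all genes were called in either direction and 3.01% as higher. DESeq2 called 0.601% of genes at an adjusted p under 0.05, among them 1 member, Rfng. On simulated counts with the spread of these pools, DESeq2 made more false calls than true ones, and edgeR made few calls of either kind. That simulation took its spread from edgeR's own fit and set changes larger than that of Rfng. It therefore cannot judge the DESeq2 call of Rfng. The CKO pools lay above all WT pools for 3 members, Adam10, Lfng and Rfng, and below them for 0, where 7.67% of all genes lay above, 8.17% below and 15.8% on either side. The median log2 fold change, CKO over WT, was 0.08 over the members and -0.06 over all genes tested, and 6 of 9 members and 47.2% of all genes were above 0. With 3 pools against 3 an exact permutation test cannot give a p under 0.1. In bulk RNA of sorted cells, fewer cells of a type and less RNA per cell cannot be told apart.

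**Figure D2:**
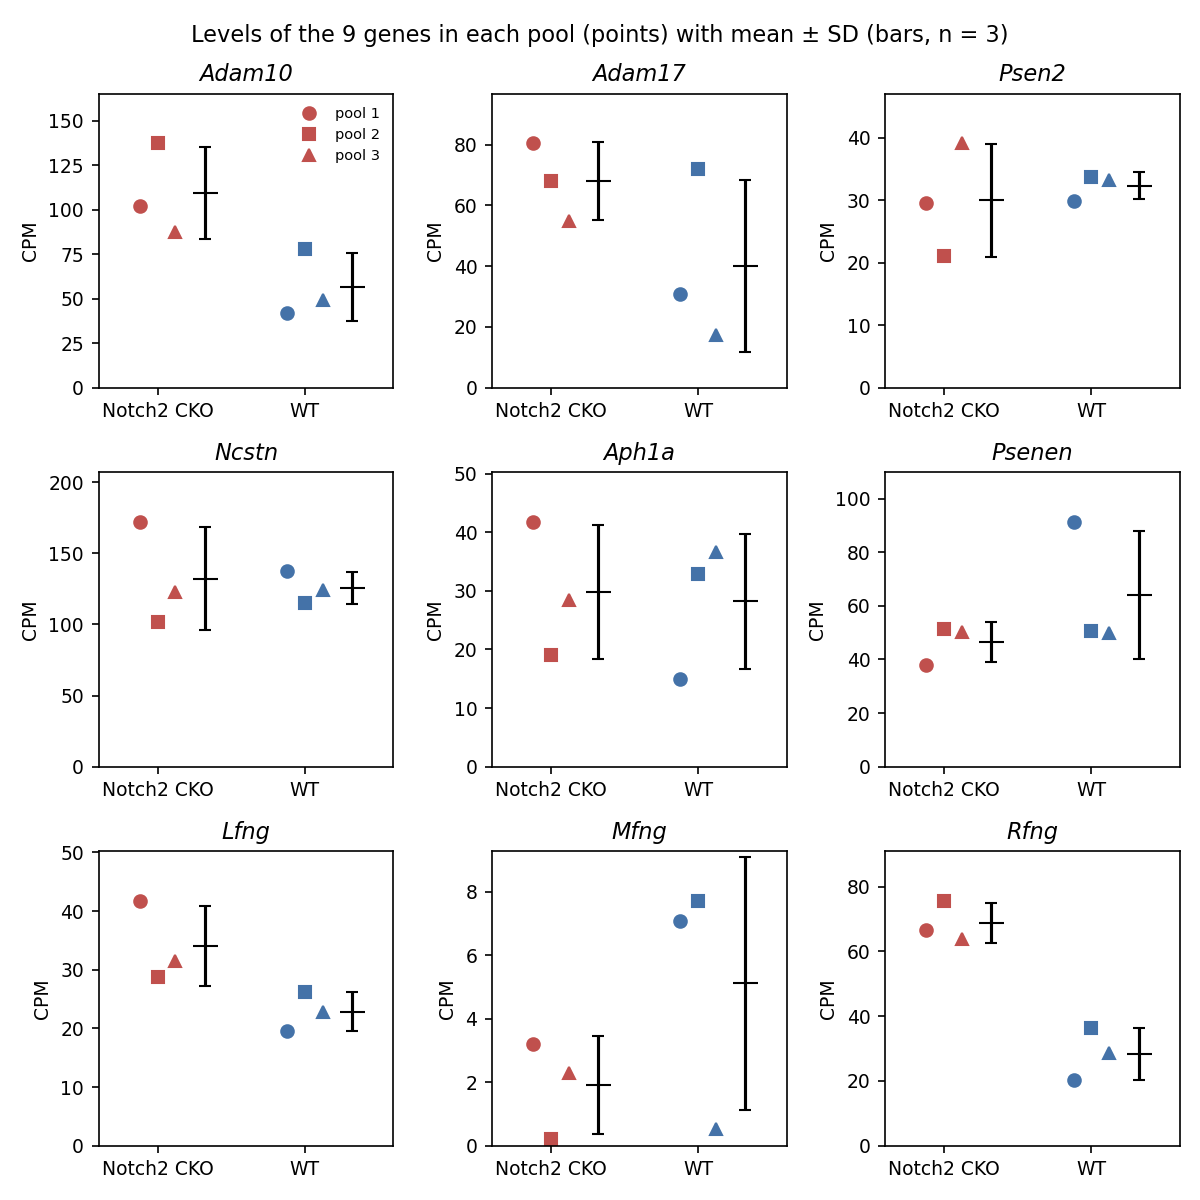
CPM of each gene in the 3 Notch2 CKO pools (left of each panel) and the 3 WT pools (right), with the mean and SD of each group as bars. Groups do not overlap for Adam10, Lfng and Rfng, and they overlap for the other 6 genes.

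Adam10 encodes the protease that makes the ligand-induced cut in Notch, and it lies on chromosome 9 at 70678997 to 70780229 (GRCm38, plus strand). It stood at 102, 138 and 87.7 CPM in CKO pools 1 to 3, against 41.9, 78.0 and 49.0 CPM in WT pools 1 to 3. The lowest CKO pool was thus above the highest WT pool, by a small margin. Its log2 fold change was 0.95 (SE 0.32), a 1.94-fold difference with a 95% interval of 1.14 to 3.29, which did not pass after adjustment (edgeR unadjusted p = 0.0212, adjusted p = 0.790, exact two-sided permutation p = 0.1). Between 1850 and 6141 reads per pool lay behind these values, so counting error was small beside the spread of pools. In the libraries taken singly the genotypes overlapped, with log2 fold changes of 1.21 (SE 0.64) in library 1 and 0.64 (SE 0.51) in library 2. CKO pool 3 had 44.7 CPM in library 1 and 122 CPM in library 2, and WT pool 2 had 34.7 CPM in library 1 and 127 CPM in library 2.

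Adam17, a related sheddase best known for releasing tumour necrosis factor, can also cut Notch. Its gene, on the minus strand of chromosome 12 at 21323509 to 21373632, shares 311 exon bases (4.35%) with Iah1 on the other strand. It had 80.7, 68.2 and 55.0 CPM in CKO pools 1 to 3, against 31.0, 71.9 and 17.4 CPM in WT pools 1 to 3. WT pool 2 lay among the CKO pools, while the other 2 WT pools were below all of them. A log2 fold change of 0.76 (SE 0.51) did not pass (edgeR adjusted p = 0.800, unadjusted p = 0.181), and it was 1.55 without WT pool 2 and 0.40 without WT pool 3. WT pool 3 had 617 reads of Adam17 in library 1 but 41 in library 2, or 40.3 and 2.05 CPM. In library 1 all CKO pools (50.6 to 66.3 CPM) lay above all WT pools (18.4 to 40.3 CPM), and in library 2 WT pool 2, at 133 CPM, was the highest of all. Per kilobase, the sheddases summed to 31.7 ± 6.02 CPM per kb in CKO and 17.1 ± 7.68 CPM per kb in WT pools (SD, n = 3 each), with the lowest CKO pool at 25.5 and the highest WT pool at 25.9 CPM per kb. Adam10 made up 69.8 ± 4.95% of that sum in CKO and 69.3 ± 9.91% in WT pools (SD, n = 3 each).

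The genotypes overlapped for all 4 gamma-secretase subunits, and 2 of the 4 were above 0 in log2 fold change. Ncstn, on the minus strand of chromosome 1 at 172066013 to 172082795 and with 195 exon bases (4.91%) shared with Copa on the other strand, stood at 172, 102 and 122 CPM in CKO pools 1 to 3, against 138, 115 and 124 CPM in WT pools 1 to 3. Its log2 fold change was 0.07 (SE 0.25; adjusted p = 0.948 in edgeR), a fold of 1.05 with a 95% interval of 0.696 to 1.59. CKO pool 1 was the highest and CKO pool 2 the lowest of all 6 pools, and the WT pools lay between them.

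Psen2 encodes a presenilin, the catalytic part of the complex, from the minus strand of chromosome 1 at 180227004 to 180263438. It had 29.6, 21.2 and 39.3 CPM in CKO pools and 29.9, 33.8 and 33.3 CPM in WT pools, so that the CKO pools spread on both sides of the WT pools. With a log2 fold change of -0.11 (SE 0.33) it did not pass (edgeR adjusted p = 0.943), at a 95% interval of the fold of 0.541 to 1.59. Aph1a, the scaffold subunit, had 41.8, 19.1 and 28.5 CPM in CKO pools and 15.0, 32.9 and 36.6 CPM in WT pools, with each genotype holding a low and a high pool (log2 fold change 0.08, SE 0.46, edgeR adjusted p = 0.969). Its interval, a fold of 0.495 to 2.26, was the widest of the 4 subunits. Aph1a lies on chromosome 3 at 95893969 to 95898288 (GRCm38), 2.115 Mb from Notch2, the gene whose alleles differ between the genotypes. Its exons overlap those of Car14 on the other strand over 445 bases (12.9% of its exon length), and the library kits do not mark strand.

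Psenen was the subunit with the lowest CKO level relative to WT. Its gene lies on the minus strand of chromosome 7 at 30561863 to 30563627, with 119 exon bases (9.33%) shared with U2af1l4 on the other strand. It stood at 37.8, 51.4 and 50.3 CPM in CKO pools 1 to 3, against 91.4, 50.6 and 49.9 CPM in WT pools 1 to 3. WT pool 1 alone was high, and the other pools lay together apart from CKO pool 1. The difference of -0.46 on the log2 scale (SE 0.33; adjusted p = 0.803 in edgeR) was -0.10 without WT pool 1. In that pool, library 1 gave 133 CPM and library 2 gave 51.8 CPM. The 5 excitatory neuron markers summed to 114 to 180 CPM in CKO pools and to 567, 152 and 174 CPM in WT pools 1 to 3, and the part of those cells in the Psenen value was not tested. The 4 subunits together summed to 91.9, 76.4 and 87.6 CPM per kb in CKO pools and 118, 85.9 and 88.7 CPM per kb in WT pools. Of this sum Psenen held 43.4 ± 10.4% in CKO and 50.4 ± 9.19% in WT pools, and Ncstn 38.6 ± 7.43% in CKO and 32.8 ± 2.97% in WT pools (SD, n = 3 each). Psen2 held 8.05 ± 2.05% in CKO and 7.87 ± 1.75% in WT pools.

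The Fringe genes differed among themselves in both level and direction. Rfng, or radical fringe, on the minus strand of chromosome 11 at 120780746 to 120784207, stood at 66.5, 75.7 and 63.8 CPM in CKO pools 1 to 3, against 20.3, 36.3 and 28.6 CPM in WT pools 1 to 3. All CKO pools lay well above all WT pools. This log2 fold change was 1.27 (SE 0.30), a 2.42-fold difference with a 95% interval of 1.48 to 3.95. It did not pass after adjustment in edgeR (unadjusted p = 0.00357, adjusted p = 0.790, exact two-sided permutation p = 0.1) and passed in DESeq2 (adjusted p = 0.0311).

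The Rfng difference was not the same in the repeat libraries of the same pools. In library 2, CKO pools 1 to 3 had 102, 117 and 90.0 CPM, against 19.5, 30.9 and 4.09 CPM in WT pools 1 to 3. In library 1, CKO pools 1 to 3 had 25.0, 25.7 and 31.1 CPM, against 19.3, 40.8 and 65.0 CPM in WT pools 1 to 3. The genotypes were far apart in library 2 and overlapped in library 1, where the WT mean was the higher. On the log2 scale Rfng differed by 2.48 (SE 0.70, edgeR unadjusted p = 0.01, adjusted p = 0.984) in library 2 and by -0.59 (SE 0.58) in library 1. The interaction of genotype with library, fitted over all genes with the pool as a block, was 3.22 (SE 1.12, edgeR unadjusted p = 0.0257, adjusted p = 0.984). By this test 4.59% of all genes had an unadjusted p under 0.05 and 0% an adjusted one. In 2.27% of all genes every CKO pool moved one way between the libraries and every WT pool the other, and 1 member, Ncstn, was among them. WT pool 3 had 997 reads of Rfng in library 1 and 82 in library 2.

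**Figure D3:**
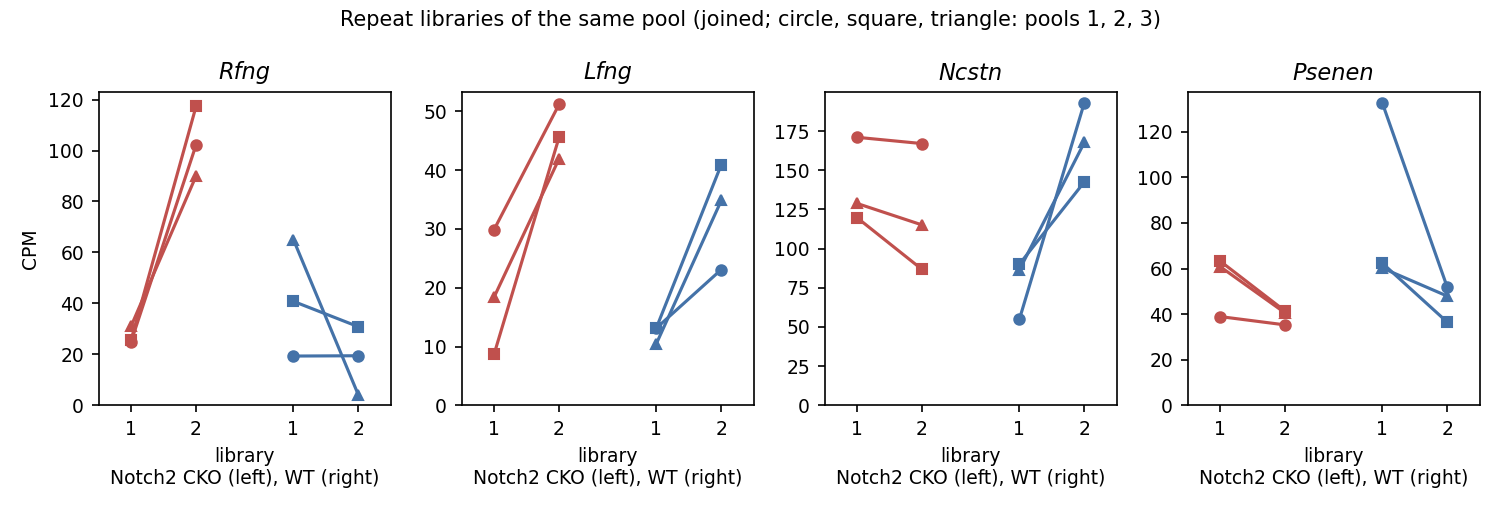
CPM of Rfng, Lfng, Ncstn and Psenen in library 1 and library 2 of each pool, joined by a line, with Notch2 CKO pools to the left of WT pools in each panel. Rfng is higher in library 2 in all 3 CKO pools, Lfng in all 6 pools, and Psenen is lower in library 2 in all 6 pools.

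Lfng, or lunatic fringe, is expressed by adult hippocampal stem cells, where a reporter under its promoter marks them, and in cell assays it favours Delta over Jagged ligands. The gene lies on chromosome 5 at 140607320 to 140615545, plus strand. It had 41.8, 28.8 and 31.5 CPM in CKO pools 1 to 3, against 19.5, 26.2 and 22.8 CPM in WT pools 1 to 3. The CKO pools lay above the WT pools, with the nearest pools 28.8 and 26.2 CPM. A difference of 0.58 on the log2 scale (SE 0.32), a fold of 1.49 with a 95% interval of 0.890 to 2.5, did not pass (edgeR unadjusted p = 0.111, adjusted p = 0.790, exact two-sided permutation p = 0.1). It was 0.65 (SE 0.69) in library 1, with overlap, and 0.48 (SE 0.34) in library 2, without.

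Mfng, or manic fringe, on the minus strand of chromosome 15 at 78755882 to 78773475, was near the lower end of detection. It had 3.21, 0.202 and 2.28 CPM in CKO pools 1 to 3, against 7.08, 7.72 and 0.530 CPM in WT pools 1 to 3. These levels came from 183, 9 and 116 reads in CKO pools and 358, 327 and 20 reads in WT pools. CKO pool 2 and WT pool 3 were both low, and the log2 fold change of -1.43 (SE 1.23; adjusted p = 0.820 in edgeR) has a 95% interval of the fold of 0.0496 to 2.79. Its reads were split unevenly between libraries, with 7 and 109 in libraries 1 and 2 of CKO pool 3 and 1 and 19 in those of WT pool 3.

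Per kilobase, the 3 Fringe genes summed to 44.6, 42.0 and 39.0 CPM per kb in CKO pools 1 to 3, against 18.4, 27.8 and 20.8 CPM per kb in WT pools 1 to 3. Rfng made up 60.0, 72.4 and 65.7% of this sum in CKO pools and 44.2, 52.6 and 55.3% in WT pools. Neither the sums nor the Rfng shares overlapped between the genotypes, where 15.8% of all genes did not. Both follow from the Rfng values above, which did overlap in library 1. Lfng held 32.4 ± 5.03% in CKO and 41.2 ± 3.20% in WT pools, and Mfng 1.59 ± 1.25% in CKO and 8.07 ± 6.49% in WT pools (SD, n = 3 each).

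The repeat libraries of a pool differed for most of the members. The larger of the libraries exceeded the smaller by a median over pools of 1.42-fold for Psen2 to 3.49-fold for Rfng among the 8 members other than Mfng, whose median was 6.02-fold. As absolute log2 differences the median over all 9 members was 1.06, against 0.64 over 8932 genes whose log2 CPM averaged 4 or more. The sets differ in level, since the 9 include Mfng, which lay below that mark at 0.202 to 7.72 CPM. The log2 fold change between the genotypes had the same sign in both libraries for 5 of 9 members, Adam10, Adam17, Psenen, Lfng and Mfng. It had opposite signs for 4, Psen2, Ncstn, Aph1a and Rfng. Of the 17609 genes that passed the filter in both libraries taken singly, 59.3% had the same sign. Adam17 and Ncstn had no overlap between the genotypes in library 1, and Lfng and Rfng had none in library 2, so that 0 of 9 members were without overlap in both. Of all genes, 15.9% were without overlap in library 1, 10.6% in library 2 and 1.94% in both.

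Between libraries 2 and 1, taken over the 6 pools as pairs, Lfng was higher in library 2 in 6 of 6 pools, at a log2 difference of 1.42 (SE 0.33, edgeR unadjusted p = 0.0026, adjusted p = 0.194). Psenen was lower in library 2 in 6 of 6 pools, at -0.63 (SE 0.23, edgeR unadjusted p = 0.0256, adjusted p = 0.324). Across all genes 5.17% were higher and 7.84% lower in library 2 in all 6 pools, and 12.8% had an unadjusted p under 0.05 with 0% adjusted. The labels do not say in what the libraries differed.

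**Figure D4:**
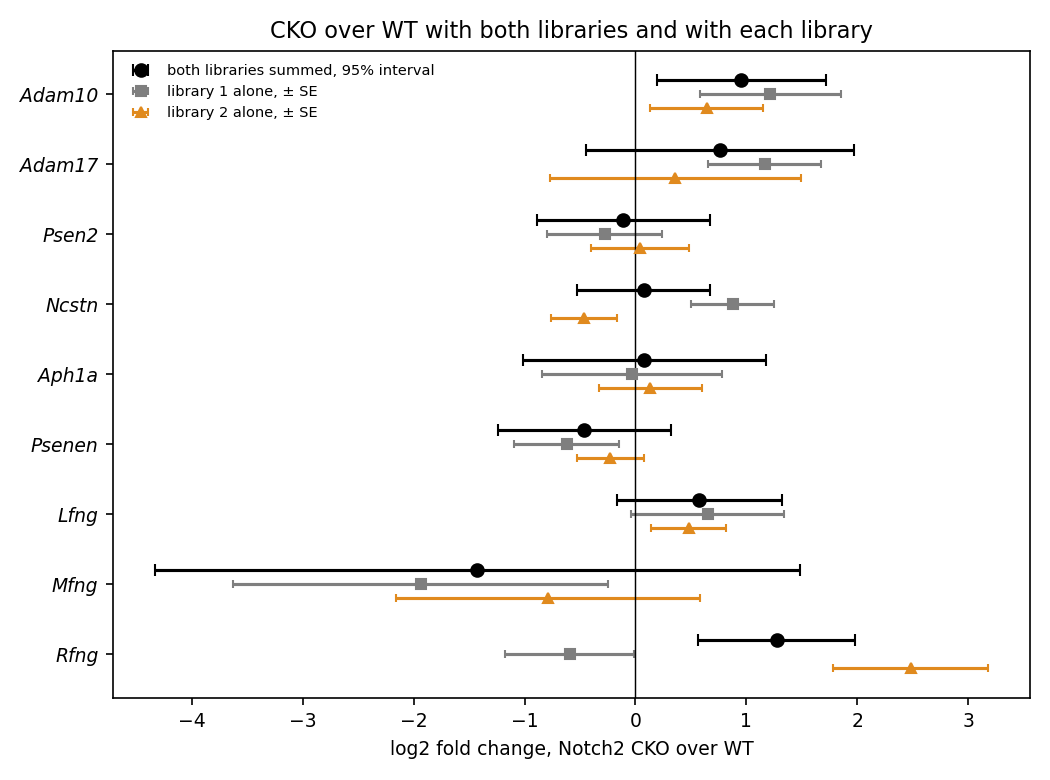
Log2 fold change, Notch2 CKO over WT, of each gene with both libraries summed (black, 95% interval), with library 1 alone (grey, SE) and with library 2 alone (orange, SE). Rfng lies at -0.59 in library 1 and 2.48 in library 2, and Ncstn at 0.88 and -0.46.

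Of 39 further genes, listed for Notch receptor processing or as other members of the ADAM family, 38 were tested. None passed an adjusted p under 0.05. In log2 fold change 26 were above 0, 8 of them other ADAM genes, and 12 below, where 47.2% of all genes were above 0. The median was 0.34, against -0.06 over all genes. CKO pools lay above all WT pools for 3 of these genes and below them for 2, where 7.67% of all genes lay above and 8.17% below. With an unadjusted p under 0.05 there was 1 gene, Bsg, lower in CKO, where 2.9% of all genes were called as lower. Bsg encodes basigin, a membrane protein reported to associate with gamma-secretase and better known as a chaperone of lactate transporters. It stood at 658, 598 and 715 CPM in CKO pools 1 to 3, against 1470, 851 and 1013 CPM in WT pools 1 to 3. The genotypes did not overlap, and the log2 fold change was -0.76 (SE 0.25, edgeR unadjusted p = 0.0171, adjusted p = 0.790), or -0.49 without WT pool 1. That pool had the highest sums of both the excitatory neuron markers (567 CPM) and the endothelial markers (71.5 CPM), and the part of those cells in the Bsg value was not tested.

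Among the other gamma-secretase genes, 5 of 6 were below 0. Rer1, which retains unassembled subunits in the early secretory pathway, stood at 160 ± 8.53 CPM in CKO and 188 ± 14.8 CPM in WT pools, without overlap (log2 fold change -0.23, SE 0.19, edgeR adjusted p = 0.816). Tmed10, a cargo receptor, stood at 302 ± 48.2 CPM in CKO and 345 ± 70.6 CPM in WT pools. The Aph1a paralogues Aph1b and Aph1c, named after their values were seen, are near copies that can share reads, and they averaged 41.5 and 14.1 CPM in CKO against 41.6 and 18.6 CPM in WT pools.

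Of the tetraspanins that carry Adam10 out of the endoplasmic reticulum, 5 of 6 were tested and 3 were above 0. Tspan15 stood at 115, 109 and 118 CPM in CKO pools and 99.7, 109 and 53.1 CPM in WT pools. Its genotypes were separated by less than 1 CPM, and its log2 fold change was 0.39 (SE 0.30). Tspan14 lay at 0.93 (SE 0.60) and Tspan5 at 0.87 (SE 0.64) on the same scale, with overlap. The 3 genes of Adam17 maturation were all above 0, with the inactive rhomboid Rhbdf1 at 37.7 ± 6.01 CPM in CKO and 20.1 ± 13.3 CPM in WT pools (log2 fold change 0.91, SE 0.61, edgeR adjusted p = 0.800). The genotypes of Rhbdf1 did not overlap, with the nearest pools at 31.3 CPM (CKO pool 2) and 31.0 CPM (WT pool 2). WT pool 3 held 5.22 CPM of Rhbdf1 and also the lowest Adam17, Tspan14, Tspan15 and Tspan5 levels. The same pool had the highest levels of the other tested tetraspanins, Tspan17 (13.6 CPM) and Tspan33 (18.7 CPM), named after their values were seen. Their log2 fold changes were -0.0024 (SE 0.62) for Tspan17 and -1.15 (SE 0.77) for Tspan33, with overlap. Without WT pool 3 the log2 fold change was 0.45 for Rhbdf1, 0.51 for Tspan14, 0.45 for Tspan5 and 0.12 for Tspan15. Without WT pool 2 it was 1.45 for Rhbdf1, 1.5 for Tspan14 and 0.64 for Tspan15, and without WT pool 1 it was 1.48 for Tspan5. Reads not aligned were 11.8, 11.2 and 12.9% in CKO pools 1 to 3 and 15.8, 12.5 and 21.7% in WT pools 1 to 3, and WT pool 3 also had the fewest reads in genes. The part of this in the values of that pool was not tested. Rhbdf2 was scarce, at 0.786 ± 1.18 CPM in CKO and 0.244 ± 0.11 CPM in WT pools, and Frmd8, which stabilises the rhomboids, had a log2 fold change of 0.08 (SE 0.36).

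The inhibitors of metalloproteases lay on both sides of 0. Timp4 had 457 ± 27.2 CPM in CKO and 609 ± 170 CPM in WT pools (log2 fold change -0.42, SE 0.24). Timp3, an inhibitor of both sheddases, had 371 ± 60.4 CPM in CKO and 284 ± 59.6 CPM in WT pools (log2 fold change 0.38, SE 0.24), and Timp2 had -0.37 (SE 0.37). Without WT pool 1 these log2 fold changes were -0.16 for Timp4, 0.26 for Timp3 and -0.023 for Timp2. Of the 5, 3 were above 0 and 0 passed (smallest edgeR adjusted p = 0.794). The exons of Timp3 overlap those of Syn3 over 21.3% of their length.

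Among 9 enzymes of Notch O-glycosylation, 7 were above 0. Pofut1, which adds the O-fucose that Fringe enzymes extend, averaged 25.4 ± 12.9 CPM in CKO and 24.1 ± 4.58 CPM in WT pools (log2 fold change 0.08, SE 0.47). The O-glucosyltransferase Poglut1 averaged 67.7 ± 17.2 CPM in CKO and 98.8 ± 59.5 CPM in WT pools, where WT pool 3 alone had 167 CPM, and its log2 fold change of -0.55 was 0.06 without that pool. Kdelc1, a related enzyme, had a log2 fold change of 0.49 (SE 0.37), which was 0.21 without WT pool 1 and 0.81 without WT pool 3. Eogt, an N-acetylglucosamine transferase named after its values were seen, was the 1 gene of these 9 without overlap, where 15.8% of all genes lacked it. It stood at 30.6 ± 7.44 CPM in CKO and 13.7 ± 9.84 CPM in WT pools (log2 fold change 1.16, SE 0.58, edgeR unadjusted p = 0.0828, adjusted p = 0.790). Furin, the convertase that cuts the Notch precursor, was at 7.63 ± 1.79 CPM in CKO and 5.64 ± 0.933 CPM in WT pools. Of 9 other ADAM genes 8 were above 0, where 47.2% of all genes were, and 0 lacked overlap, where 15.8% of all genes did, with Adam9 at 0.08 (SE 0.44), Adam22 at 0.72 (SE 0.55) and Adam15 at 0.30 (SE 0.33) on the log2 scale. Adam22 was at 1.6 without WT pool 2 and 0.37 without WT pool 3. Adam15 shares 20.6% of its exon bases with an antisense transcript.

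**Figure D5:**
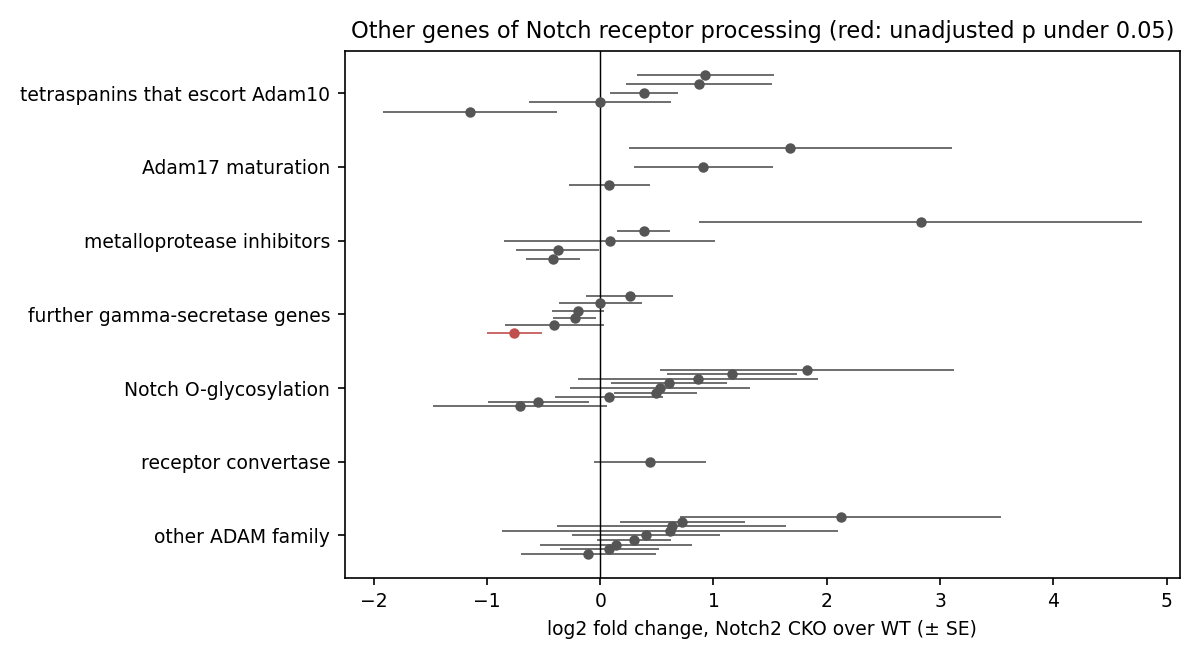
Log2 fold change, Notch2 CKO over WT, with SE for the 38 tested genes of 7 lists, of Notch receptor processing and of other ADAM genes, 1 point per gene. Bsg, in the list of further gamma-secretase genes, is the gene in red, with an unadjusted p under 0.05.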

How the data were processed

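RNA of sorted cells was made into cDNA with Smart-Seq2 and into libraries with Nextera XT, per the labels' protocols. The submitters' processing notes name Bowtie2, HTSeq and the build GRCm38, without versions or counting options, and the deposited files end in HTSeq's summary lines. The deposited files hold raw read counts per gene symbol for 24 runs. The HTSeq summary lines were left out of library sizes. Per pool, 16.0% to 35.3% of reads matched no counted feature, 11.2% to 21.7% were not aligned and 2.51% to 3.43% were ambiguous. The 35.3% was that of CKO pool 2, which had reads in 38187 symbols, against 26502 to 33937 in the other pools. That pool also had the highest Adam10 and Rfng levels, at 138 and 75.7 CPM. Its Psen2, Ncstn and Mfng levels were the lowest of all pools, at 21.2, 102 and 0.202 CPM. The part of this in its values was not tested. HTSeq's summary lines for multiply aligned and low-quality reads were at 0, so near copies may share reads.

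Lanes of a library agreed within sampling noise (chi-square per degree of freedom 0.981 to 1.01 over 12 libraries, smallest p = 0.204). Libraries of a pool did not (75.9 to 376). All runs of a pool were summed, and the pool was the replicate, with n = 3 per genotype. Whether pools had separate animals is not stated, and p-values then cover only the spread of the pools at hand, which may be technical. The genotype test was edgeR 4.0.16 under R 4.3.3 (filterByExpr, TMM, robust quasi-likelihood F test, Benjamini-Hochberg over 21477 genes, threshold 0.05). The common biological coefficient of variation was 0.725. A second fit on the 12 libraries, with the pool as a block, tested the library and its interaction with genotype. Alternatives used DESeq2 1.42.0, limma 3.58.1, other scalings and filters, the pool number as a block, single libraries and each pool left out. Positions and exon lengths are those of GENCODE M21. Reads were not tagged by molecule, so depth speaks to counting error alone, and 1 read is 0.0175 to 0.0265 CPM.

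The members and lists were chosen with earlier results of these data known. The text names all members, Notch1, Notch2 and Notch3, and of each further list the 3 genes with the highest mean CPM and any with an unadjusted p under 0.05.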

Additional observations from a re-analysis of the deposited data

Results flagged for a closer look

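Ncstn moved in opposite directions between the repeat libraries of the genotypes. From library 1 to library 2 it was lower in every CKO pool (171 and 167 CPM in pool 1, 120 and 86.7 CPM in pool 2, 129 and 115 CPM in pool 3). In every WT pool it was higher (54.9 and 193 CPM in pool 1, 90.1 and 142 CPM in pool 2, 86.4 and 168 CPM in pool 3). The interaction of genotype with library was -1.36 on the log2 scale (SE 0.39, edgeR unadjusted p = 0.0111, adjusted p = 0.984), so the difference did not pass after adjustment. Of all genes, 2.27% showed opposite directions of this kind.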

How the results depend on the processing

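The number of genes past the threshold was 0 under each alternative but DESeq2, which called 129. It was 0 without each pool in turn. The replicate block on the pool number also gave 0. Same-numbered pools had correlations of deviations of 0.0559, 0.0218 and -0.028, so the numbers were not taken to pair pools. The log2 fold changes of 5 of 9 members, Adam10, Adam17, Psenen, Lfng and Mfng, kept their sign under all 14 alternatives, with ranges of 0.64 to 1.31, 0.36 to 1.55, -0.62 to -0.10, 0.41 to 0.74 and -2.03 to -0.79. The replicate block gave 0.98 for Adam10 and 1.31 for Rfng. Signs turned with library 1 alone for Rfng (-0.59), Aph1a (-0.032), Tspan15 (-0.092), Pofut1 (-0.39), Adam15 (-0.27) and Notch3 (-1.03). They turned with library 2 alone for Ncstn (-0.46), Psen2 (0.041), Frmd8 (-0.093), Timp3 (-0.0081), Tmed10 (0.21), Adam9 (-0.38) and Notch1 (0.22). Leaving out 1 pool gave -0.31 to 0.091 for Psen2, -0.15 to 0.23 for Ncstn, -0.23 to 0.32 for Aph1a, -0.16 to 0.40 for Frmd8, -1.13 to 2.30 for Rhbdf2, -0.77 to 0.064 for Poglut1, -0.30 to 0.42 for Pofut1, -0.20 to 0.56 for Adam9 and -0.10 to 0.11 for Notch1. Frmd8 was at -0.046 in limma-voom, Pofut1 at -0.066 with the replicate block, and Notch1 at 0.0093 with no filter and 0.00069 with a mean of at least 1 CPM. The cause of these turns was not tested. The count of members at an unadjusted p under 0.05, an alternative added after seeing the data, was 1 to 3. Rfng was among them in each setting but library 1 alone, and Adam10 was lost with either library alone, without CKO pool 2 and without WT pool 1.

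With the longest coding transcript as the length, chosen after seeing the data, the mean level per kilobase was 12.1 for Adam17, 15.4 for Psen2, 44.4 for Ncstn and 78.0 for Psenen. Psen2 then ranked 5 in place of 8 among the members. Few reads lay behind Mfng, with as few as 1 in a library, and behind Rhbdf2, at 0.0393 to 2.14 CPM.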
